A study of Homo sapiens with 7 samples.

Results

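The genes described here encode proteins of the azurophil (primary) granule, the first granule made by developing neutrophils. They are MPO, ELANE, PRTN3, AZU1, CTSG, BPI, LYZ, RNASE2, RNASE3 and DEFA4, and all 10 were found by symbol among the 20163 protein-coding genes of GENCODE release 44 lifted to GRCh37. They were grouped by the proteins they encode, in a choice made with earlier results of these data known, and no measured value enters the rule. A gene was counted as having a peak when a peak summit lay in the gene body or within 5 kb of either end, and a reach of 50 kb served as a wider view.

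Azurophil granules are filled at the promyelocyte stage, when many of the genes for their enzymes and antimicrobial proteins are switched on together and then switched off before the cell matures. AML1 (Runx1), PU.1, C/EBP factors and Myb are the transcription factors best known for driving these genes, and several of the genes sit beside a related gene, as AZU1, PRTN3 and ELANE do on chromosome 19. In t(8;21) leukemia the fusion protein AML1-ETO keeps the DNA-binding runt domain of AML1 and joins it to ETO, which binds co-repressors such as N-CoR. The acetyltransferase p300 is a coactivator, and trimethylation of histone H3 at lysine 4 (H3K4me3) marks the starts of genes that are active or poised.

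All libraries came from Kasumi-1, an established leukemic myeloblast line that carries the t(8;21) translocation, so every group has AML1-ETO beside AML1 and there was no treatment, time course or line without the fusion. The groups are 5 ChIP-seq experiments named for the antibody, and the N-CoR and p300 pulldowns were also washed by another protocol than the rest. AML1 was recovered with an antibody to its C-terminal region that does not pull down the fusion, AML1-ETO with an antibody to ETO, and the other 3 with antibodies to N-CoR, p300 and H3K4me3. The authors pooled 2 replicates of each antibody and called peaks at p = 1e-20, giving 10004 summits for N-CoR, 11020 for p300, 11692 for AML1, 18087 for AML1-ETO and 19632 for H3K4me3. There is 1 list per antibody and no read count or peak height, so no value has an error between replicates, read depth is unknown from the lists, and a gene without a summit is one at which no peak was called, not one shown to be unbound. The lists hold no expression values, and the cell type could not be checked against marker genes.

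The binding sites that carry most of what follows are shown first, as the DNA within 50 bp of a summit, read 5′ to 3′ on the strand of the gene. A site is a group of summits of the 4 proteins (H3K4me3 aside) linked when they lay less than 100 bp apart, and its centre is the AML1-ETO summit where there is one. Stretches that reached into a first exon are not printed, coordinates are GRCh37 and counted from 1, and bases come from the GRCh37 reference. Capitals mark the letters TGTGGT or their complement ACCACA, the core sequence of Runx proteins, and GAGGAA or TTCCTC, a core sequence of PU.1. The sites are those with AML1 or AML1-ETO and a co-regulator within 2 kb of a transcription start.
BPI start, chr20:36932458-36932551, plus strand: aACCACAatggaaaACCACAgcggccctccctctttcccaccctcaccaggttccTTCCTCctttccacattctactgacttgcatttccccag
AZU1 upstream site, chr19:823819-823918, plus strand: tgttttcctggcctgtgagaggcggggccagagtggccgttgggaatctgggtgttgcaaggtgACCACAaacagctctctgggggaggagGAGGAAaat
AZU1 start, chr19:827725-827824, plus strand: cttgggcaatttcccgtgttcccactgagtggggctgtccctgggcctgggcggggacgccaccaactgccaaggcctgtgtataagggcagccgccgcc
MPO near-start site, chr17:56359218-56359317, minus strand: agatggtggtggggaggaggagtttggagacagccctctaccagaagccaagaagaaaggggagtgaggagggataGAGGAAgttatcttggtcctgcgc
MPO start, chr17:56358360-56358459, minus strand: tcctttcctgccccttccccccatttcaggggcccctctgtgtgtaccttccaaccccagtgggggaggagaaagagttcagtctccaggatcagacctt
CTSG start, chr14:25045542-25045641, minus strand: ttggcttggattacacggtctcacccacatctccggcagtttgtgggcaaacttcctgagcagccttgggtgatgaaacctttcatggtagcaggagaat
RNASE2 intron, chr14:21423782-21423881, plus strand: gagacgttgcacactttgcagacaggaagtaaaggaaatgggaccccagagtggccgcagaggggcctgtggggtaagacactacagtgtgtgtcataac
RNASE3 intron, chr14:21359737-21359836, plus strand: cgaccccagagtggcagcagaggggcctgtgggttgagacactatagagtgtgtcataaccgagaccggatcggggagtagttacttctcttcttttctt

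The BPI window holds ACCACA at base 2 and again at base 15 of the printed strand, and TTCCTC at base 56. The AZU1 upstream window holds ACCACA at base 65 and GAGGAA at base 92, and the MPO near-start window holds GAGGAA alone, at base 77. The windows at the AZU1, MPO and CTSG starts and in the RNASE2 and RNASE3 introns have no capitals, although AML1-ETO and N-CoR summits lie in each of them.

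AML1-ETO, N-CoR and p300 each had a summit within 5 kb of 7 of the 10 genes, and AML1 had one at 6. Over all protein-coding genes the share with a summit was 26.7% for N-CoR, 34.9% for AML1, 41.3% for AML1-ETO and 45.5% for p300. H3K4me3 went the other way, with a summit within 5 kb of 4 of the 10 genes where 68.0% of all protein-coding genes had one. Azurophil genes are short, the longest being BPI at 33356 bp, and a short gene offers a smaller window. Among the 12156 protein-coding genes of at most 40 kb, the shares were 21.2% for N-CoR, 27.6% for AML1, 33.6% for AML1-ETO, 42.7% for p300 and 62.2% for H3K4me3. No test was made of these differences, because genes are not replicates and there is a single pooled list per antibody.

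**Figure D1:**
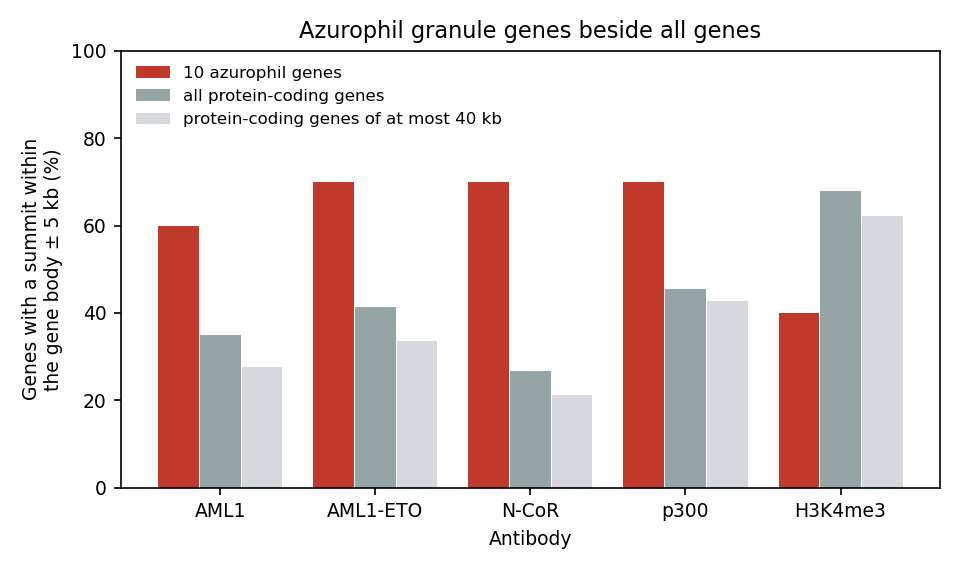
Percent of genes with a summit within the gene body ± 5 kb (vertical axis) for each of the 5 antibodies, for the 10 azurophil granule genes (red), all 20163 protein-coding genes (grey) and the 12156 of at most 40 kb (light grey). The red bar is above both grey bars for each of the 4 proteins and below both for H3K4me3, and each red bar rests on 10 genes.

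MPO, AZU1, CTSG, BPI and RNASE2 had summits of all 4 proteins within 5 kb, which is 5 of 10 genes beside 15.4% of all protein-coding genes and 11.5% of those of at most 40 kb. The other genes were each reached by fewer antibodies. ELANE had AML1-ETO, p300 and H3K4me3, PRTN3 had N-CoR, p300 and H3K4me3, RNASE3 had AML1-ETO and N-CoR, LYZ had AML1 alone, and DEFA4 had none of the 5. A gene with none of the 5 lists within reach was found for 1 of the 10 and for 25.8% of all protein-coding genes (32.6% of those of at most 40 kb). MPO was the gene with the most protein summits and AZU1 the one with the most H3K4me3 summits, as the grid of counts by gene and antibody shows. CTSG, BPI, RNASE2 and RNASE3 had AML1-ETO and no H3K4me3, a combination held by 4 of the 10 genes and by 5.20% of all protein-coding genes (4.36% of those of at most 40 kb). AML1-ETO together with H3K4me3 was found at MPO, ELANE and AZU1, or 3 of the 10 genes, beside 36.1% of all protein-coding genes and 29.3% of the short ones. The AML1-ETO summit counted for ELANE lay at the start of the neighbouring gene CFD.

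**Figure D2:**
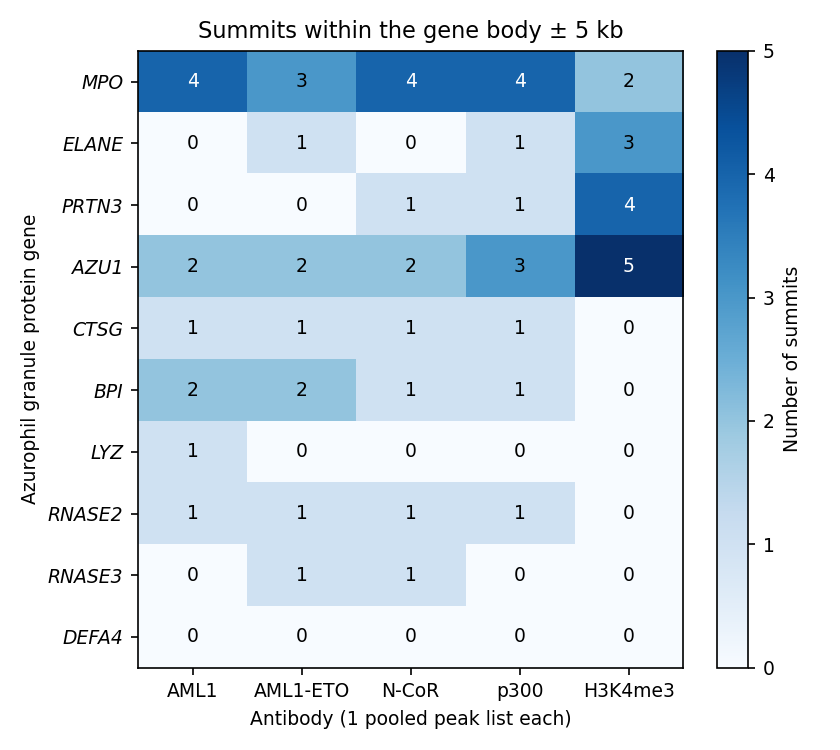
Number of summits within the gene body ± 5 kb (cell values and blue shade) for each azurophil granule gene (rows) and antibody (columns, 1 pooled list each). MPO has 3 AML1-ETO summits and 4 of each other protein, AZU1 has 5 H3K4me3 summits, and the DEFA4 row is 0 throughout; ELANE and PRTN3 share a p300 summit and 2 H3K4me3 summits that lie between or within them.

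MPO encodes myeloperoxidase, the granule enzyme that makes hypochlorous acid, and lies on the minus strand at chr17:56347216-56358296. Within 5 kb, AML1, N-CoR and p300 had 4 summits each, AML1-ETO had 3 and H3K4me3 had 2. It was the only one of the 10 genes with 3 or more AML1-ETO summits, a count that 9.04% of all protein-coding genes and 4.49% of those of at most 40 kb reached, and MPO and AZU1 were the 2 with 3 or more p300 summits, which 4.35% and 3.38% reached. The summits fell into 3 sites of all 4 proteins upstream of the start and 2 sites of fewer proteins downstream of it, 1 in MPO and 1 beyond its 3′ end.

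At the MPO start the AML1 summit lay 90 bp, the AML1-ETO summit 114 bp, the N-CoR summit 111 bp and the p300 summit 99 bp upstream, a spread of 24 bp. At the next site the same order of antibodies gave 976, 972, 1015 and 901 bp, a spread of 114 bp, so that the N-CoR and p300 windows there met only through the AML1 and AML1-ETO windows between them. At the outermost site the distances were 4072, 3997, 4022 and 4010 bp. All 4 proteins were thus called at 3 separate places over about 4 kb in front of MPO, more than at any other of the 10 genes. An AML1 summit with no partner lay 1096 bp downstream of the start in a coding exon, and an N-CoR and a p300 summit lay 66 bp apart beyond the 3′ end of MPO, 13588 and 13522 bp downstream of its start and within LPO, the neighbouring lactoperoxidase gene. H3K4me3 was called 2101 bp downstream of the main MPO start, which is 333 bp from another annotated MPO start, and 3342 bp upstream, which is 655 bp from the outermost site. No H3K4me3 summit lay within 2000 bp of the site at the main start, the nearest being 2215 bp away. Distances to H3K4me3 here and below are to summits, which do not give the extent of a marked region. Whether the main MPO start lay inside such a region cannot be told from the lists.

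AZU1, PRTN3 and ELANE follow one another on the plus strand of chromosome 19 and encode azurocidin, an antimicrobial protein related to serine proteases but without their activity, and the serine proteases proteinase 3 and neutrophil elastase. From the start of AZU1 to the end of ELANE they span 31151 bp, with 13162 bp between the main starts of AZU1 and PRTN3 and 11304 bp between those of PRTN3 and ELANE. Over this span and 5 kb to either side there were 10 H3K4me3 summits, 4 of p300, 3 each of AML1-ETO and N-CoR, and 2 of AML1. Both AML1 summits and 2 of the 3 AML1-ETO summits were at AZU1, and the remaining AML1-ETO summit was at the start of CFD beyond ELANE. N-CoR was called at AZU1 and PRTN3, p300 at AZU1 and ELANE, and H3K4me3 at all 3 genes.

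AZU1 (chr19:825097-832018) had 2 sites of all 4 proteins. The upstream site lay 3968 bp from the main AZU1 start and 1228 bp from the first annotated start of the gene, with the AML1 and AML1-ETO summits on the same base and the p300 and N-CoR summits 9 and 30 bp from it. H3K4me3 summits lay 277 bp and 188 bp to its 2 sides, and none of the other sites within 5 kb of the 10 genes had H3K4me3 within 1000 bp on both sides. The second site lay just before the main AZU1 start, in an intron of the longer transcript, with AML1 at 50 bp, AML1-ETO at 62 bp, N-CoR at 109 bp and p300 at 89 bp upstream and an H3K4me3 summit 187 bp downstream of the start. A further p300 summit, without a partner, lay 39 bp from the first annotated start. AZU1 had 5 H3K4me3 summits in reach, a count reached by 1 of the 10 genes and 1.51% of all protein-coding genes (1.14% of those of at most 40 kb), but 2 of them lay in the neighbouring gene PLPPR3, at 997 and 441 bp from a PLPPR3 start.

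PRTN3 (chr19:840999-848175) had no AML1 or AML1-ETO summit within 5 kb. Its only protein summit near the start was N-CoR, 29 bp upstream, and the nearest AML1 and AML1-ETO summits were 13212 and 13224 bp upstream, at the AZU1 start. H3K4me3 was called 2991 and 3655 bp downstream of the main start, the first of these 649 bp from another annotated PRTN3 start.

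ELANE (chr19:851014-856247) had a p300 summit 370 bp and an H3K4me3 summit 107 bp upstream of its first annotated start, and a further H3K4me3 summit 537 bp downstream of its main start. The nearest AML1 summit was 24516 bp and the nearest N-CoR summit 11333 bp upstream of the main start. The AML1-ETO summit counted for ELANE lay 7362 bp downstream of the main start and 1 bp from a start of CFD, the gene for complement factor D, where an H3K4me3 summit in an intron of CFD was counted as well. When each summit was given only to the protein-coding gene with the nearest start, ELANE lost AML1-ETO and PRTN3 lost p300. Neither gene then had AML1 or AML1-ETO.

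**Figure D3:**
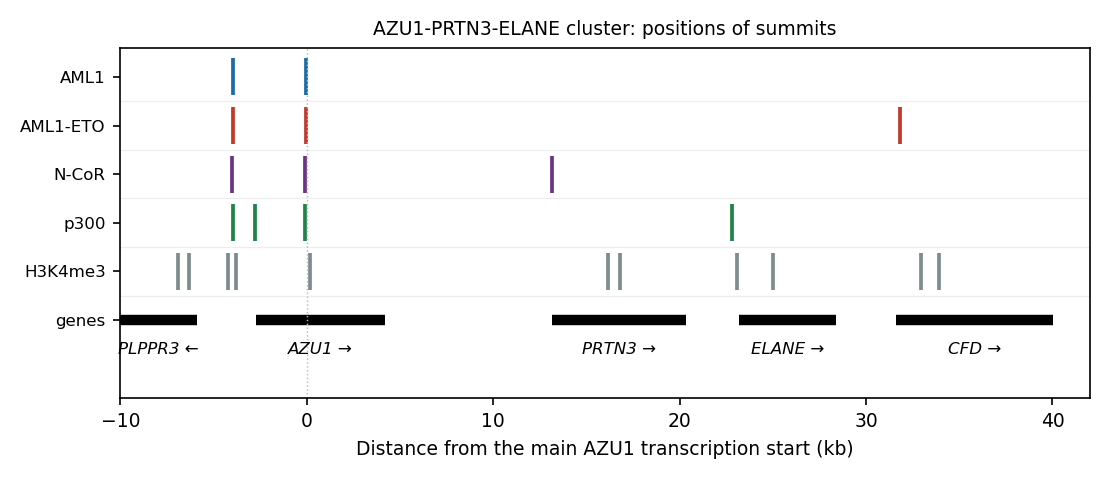
Positions of summits along the AZU1-PRTN3-ELANE cluster in kb from the main AZU1 start (horizontal axis, dotted line at 0), with a row of ticks for each antibody and black bars for gene bodies with arrows for the direction of transcription (PLPPR3 runs on beyond the left edge). AML1 ticks stand only at AZU1, AML1-ETO ticks at AZU1 and CFD, and H3K4me3 ticks at all 5 genes drawn.

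CTSG, on the minus strand at chr14:25042724-25045456, encodes cathepsin G, another serine protease of the granule. It had exactly 1 summit of each of the 4 proteins, all in front of the start, with AML1 at 121 bp, AML1-ETO at 136 bp, N-CoR at 167 bp and p300 at 96 bp upstream. No second AML1, N-CoR or p300 summit lay within 50 kb. The nearest H3K4me3 summit was 133057 bp away, so all 4 proteins were called at a start with no H3K4me3 peak in either reach.

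BPI, on the plus strand at chr20:36932552-36965907, encodes a protein that binds bacterial lipopolysaccharide. Its start carried AML1 at 43 bp, AML1-ETO at 50 bp, N-CoR at 68 bp and p300 at 72 bp upstream of the main start, a spread of 29 bp, in the window with 2 Runx cores and a PU.1 core printed above. An AML1 and an AML1-ETO summit without co-regulators lay 3675 and 3704 bp downstream in an intron, in a window with GAGGAA but no TGTGGT. A further site of all 4 proteins lay 5213 bp upstream of the first annotated BPI start, just outside the 5 kb reach, whereas the outermost site counted for MPO, at 3997 bp, lay inside it. As at CTSG, no H3K4me3 was called within 50 kb, and the nearest summit was 130681 bp from the main start.

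LYZ, at chr12:69742161-69748014, encodes lysozyme, which cleaves the peptidoglycan of bacterial walls. It had a single summit within 5 kb, AML1 at 27 bp upstream of the start. The nearest AML1-ETO summit was 540366 bp and the nearest N-CoR summit 578980 bp away. The p300 and H3K4me3 summits nearest to LYZ, 11327 and 11551 bp downstream of its start, belonged to the start of the next gene, YEATS4, from which the p300 summit was 2 bp away. LYZ was therefore the one gene of the 10 with AML1 within 5 kb and no AML1-ETO.

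RNASE2 and RNASE3 encode the eosinophil-derived neurotoxin and the eosinophil cationic protein, ribonucleases that arose by duplication and lie 64102 bp apart on the plus strand of chromosome 14. RNASE2 (chr14:21423646-21424595) had 1 summit of each protein in its intron, with AML1 at 178 bp, AML1-ETO at 186 bp, N-CoR at 193 bp and p300 at 182 bp downstream of the start, a spread of 15 bp. RNASE3 (chr14:21359544-21360507) had AML1-ETO at 243 bp and N-CoR at 251 bp downstream, also in its intron, but its nearest AML1 and p300 summits were 9984 and 17548 bp upstream. H3K4me3 was not called within 5 kb of either gene. In the aligned copies, 89 of the 100 bases of the RNASE2 window were identical in RNASE3, and the RNASE2 summit aligned to a point 40 bp from the RNASE3 summit. The longest identical stretch within 250 bp of the RNASE2 summit was 90 bp. How reads that match both copies were handled is not given in the sources used here, and the effect of such reads on the pair of peaks was not tested.

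DEFA4, at chr8:6793342-6795828 on the minus strand, encodes an alpha-defensin and had no summit of any of the 5 antibodies within 50 kb. Its nearest summits were AML1-ETO at 102733 bp and H3K4me3 at 103214 bp, followed by AML1 at 170176 bp, p300 at 531806 bp and N-CoR at 646317 bp. Among all protein-coding genes, 12.9% had none of the 5 within 50 kb, and 15.6% of those of at most 40 kb. The 5 other alpha-defensin genes of the same locus, DEFA1, DEFA1B, DEFA3, DEFA5 and DEFA6, likewise had no summit within 5 kb. DEFA1, DEFA1B and DEFA3 are near-identical copies, and the part of reads with several matches in their empty rows was not tested.

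**Figure D4:**
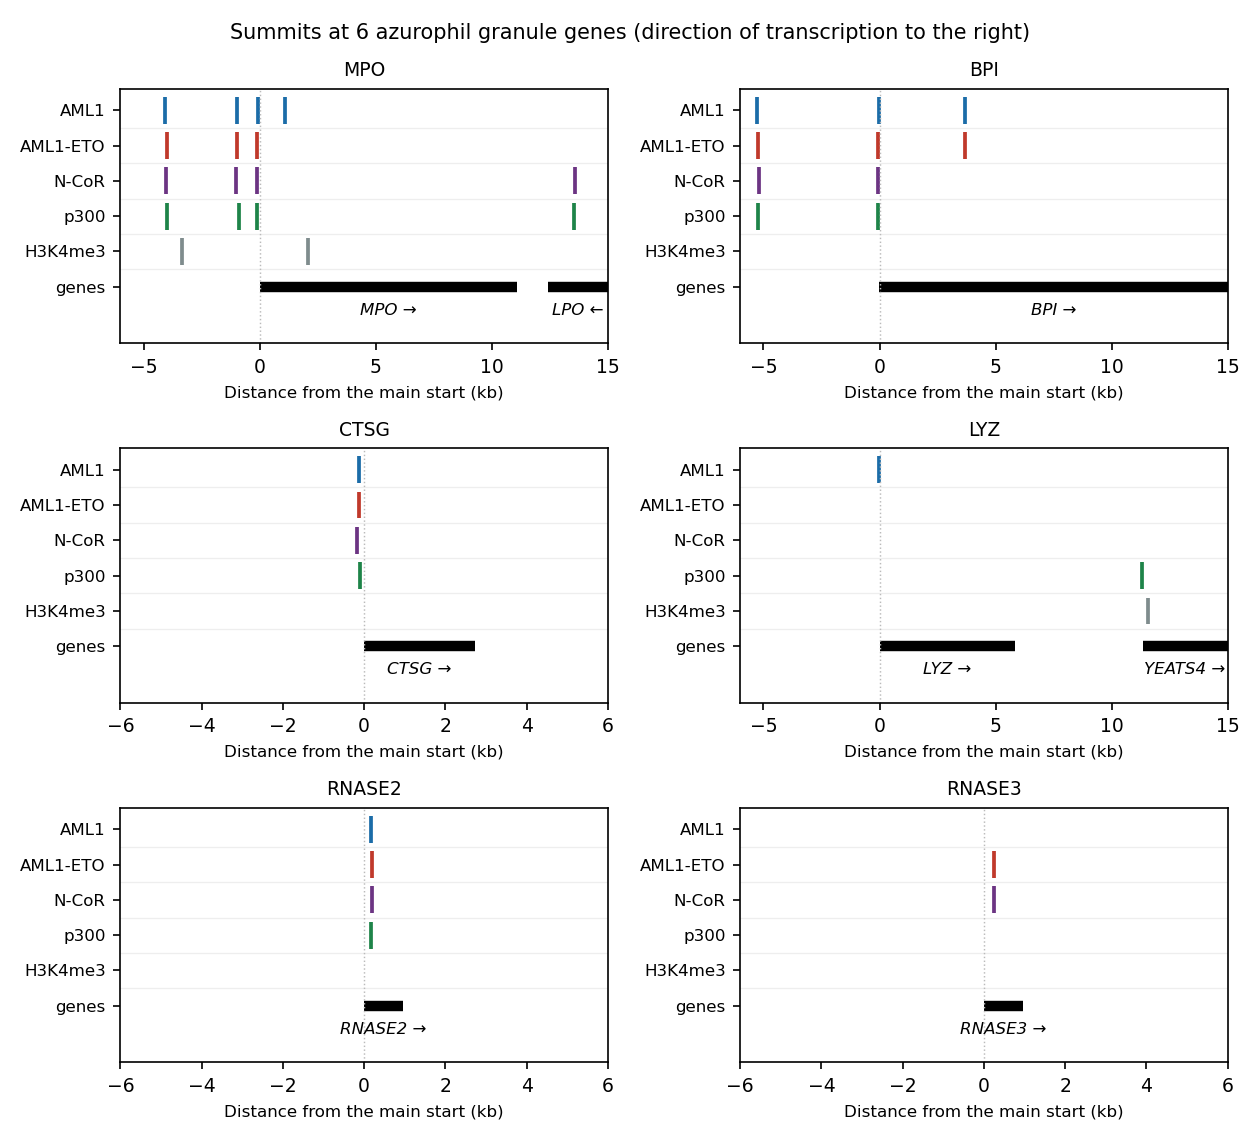
Positions of summits at MPO, BPI, CTSG, LYZ, RNASE2 and RNASE3 in kb from the main start (horizontal axes, dotted line at 0, transcription of the named gene to the right), with a row of ticks for each antibody and black bars for gene bodies. Ticks of the 4 proteins line up in front of MPO, BPI and CTSG and in RNASE2, RNASE3 has AML1-ETO and N-CoR only, and no H3K4me3 tick appears at BPI, CTSG, RNASE2 or RNASE3.

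Of the 17 binding sites within 5 kb of the 10 genes, 8 had all 4 proteins. They were formed by 11 distinct summits of each protein. Of the 8, 3 were at MPO, 2 at AZU1 and 1 each at CTSG, BPI and RNASE2, and 5 of the 8 lay within 250 bp of the main start. The other 9 sites comprised 2 with AML1 alone, 2 with p300 alone, 1 with N-CoR alone, 1 with AML1-ETO alone, and 1 each of AML1 with AML1-ETO, AML1-ETO with N-CoR, and N-CoR with p300.

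Windows of 100 bp were counted as overlapping when they shared at least 1 bp. Of the 11 AML1-ETO summits, 8 overlapped p300 (72.7%, exact Clopper-Pearson 95% interval 39.0 to 94.0%), where 21.8% of the whole AML1-ETO list did. The overlap with N-CoR was 9 of 11 (81.8%, interval 48.2 to 97.7%) beside 38.9% of the list, and that with AML1 was also 9 of 11 beside 46.2%. Windows of AML1, N-CoR and p300 together overlapped 8 of the 11, beside 11.8% of the list. No test was made of these differences. The list shares, here and below, take summits at any distance from a gene and with any number in the peak's name. All 11 AML1-ETO summits had numbers up to 7388 of 18087. Overlap with N-CoR was 91.4% for AML1-ETO summits numbered 1 to 1809, 41.5% for 5428 to 7236 and 15.4% for 16280 to 18087. The list shares were not matched to the 11 in number or distance, and how far the differences go with either was not tested. The intervals cover counting error only, and they treat the 11 summits as independent although 3 of them lie at MPO and 2 each at AZU1 and BPI.

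Seen from the other lists, 9 of the 11 AML1 summits overlapped AML1-ETO beside 71.5% of the AML1 list, 8 overlapped N-CoR beside 47.0%, and 8 overlapped p300 beside 26.4%. Of the 11 N-CoR summits, 9 overlapped AML1-ETO beside 70.3% of the N-CoR list, and 8 each overlapped AML1 and p300 beside 55.0% and 37.4%. Of the 11 p300 summits, 8 overlapped AML1-ETO beside 35.8% of the p300 list, 8 overlapped N-CoR beside 33.9% and 8 overlapped AML1 beside 28.0%.

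H3K4me3 was called within 1000 bp of an annotated transcription start for MPO, ELANE, PRTN3 and AZU1, which is 4 of the 10 genes beside 62.3% of all protein-coding genes (55.7% of those of at most 40 kb). For the main start alone the count was 2, ELANE and AZU1. The shares just given are for any annotated start, and no share for the main start alone is given here. All the H3K4me3 called within 5 kb of the 10 genes was in reach of MPO or the AZU1-PRTN3-ELANE cluster, including summits that lay in the neighbouring genes PLPPR3 and CFD. CTSG, BPI, LYZ, RNASE2, RNASE3 and DEFA4 had none within 5 kb. An H3K4me3 summit lay within 1000 bp of 3 of the 8 sites with all 4 proteins, the outermost MPO site and both AZU1 sites. No share over all such sites of the genome is given here, so this count has no background beside it.

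For AML1-ETO summits the share with H3K4me3 within 1000 bp was 3 of 11 beside 27.4% of the AML1-ETO list, and for p300 it was 4 of 11 (36.4%, interval 10.9 to 69.2%) beside 71.7% of the p300 list. The counts for AML1 and N-CoR summits were also 3 of 11, beside 29.4% and 26.9% of their lists.

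Each deposited peak carries a number in its name. What the number means is not stated in the sources used here. In the AML1-ETO list it was related to overlap with N-CoR, which 91.4% of the summits numbered 1 to 1809 and 15.4% of those numbered 16280 to 18087 had. Whether the numbers of the other lists are related to co-occupancy was not tested. Of the 11 p300 summits, 4 had numbers from 48 to 143 in a list of 11020. They were number 48 at the AZU1 upstream site and numbers 54, 66 and 143 at the 3 upstream sites of MPO. Of AML1-ETO, the BPI start had number 19 of 18087, and it also had number 62 of 11692 for AML1 and number 162 of 10004 for N-CoR. Its p300 summit was number 2972 of 11020. The highest member numbers were 8673 for AML1, at the intronic BPI site, 9093 for p300, at the site beyond the 3′ end of MPO, and 9816 for N-CoR, at RNASE3, near the end of its list. All 11 AML1-ETO summits had numbers up to 7388 of 18087, with a median of 2589.

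The H3K4me3 summits had high numbers. Their median number was 15243.5 of 19632, and the intronic MPO summit, number 1714, was the only one of the 12 below number 9841. With each list limited to peaks numbered up to 5000, which keeps a different share of each list, 6 genes had AML1-ETO within 5 kb beside 15.1% of all protein-coding genes. AML1 was then at 5 beside 17.5%, N-CoR at 5 beside 13.8%, p300 at 5 beside 25.7%, and H3K4me3 at 1, MPO, beside 32.1%.

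**Figure D5:**
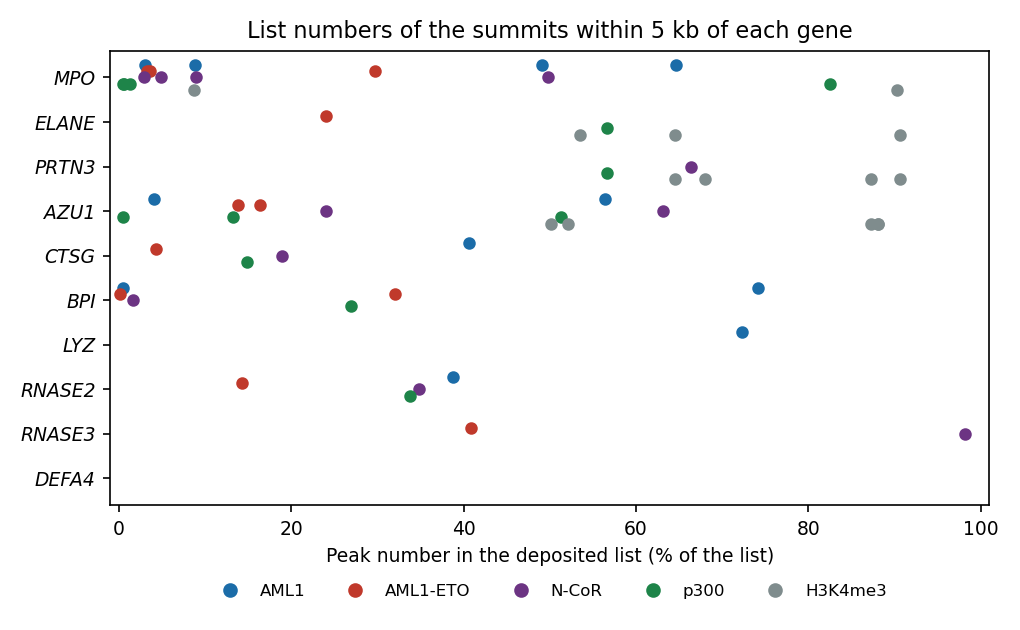
Number of each summit within 5 kb of an azurophil granule gene, as a percent of the size of its list (horizontal axis), by gene (vertical axis) and antibody (colour). The 11 AML1-ETO points all lie at or below 40.8%, 4 p300 points at MPO and AZU1 lie near 0, and every H3K4me3 point but one at MPO lies at 50.1% or more; ELANE and PRTN3 repeat the points they share.

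The letters TGTGGT were sought on both strands up to 50 bp from a site's centre. They occurred at 3 of the 17 sites, beside 6.66 to 40.6% of the summits of the 4 lists. The 3 were the AZU1 upstream site, the BPI start with 2 matches, and the LYZ start, which had AML1 alone. Among the 11 sites with AML1-ETO the letters occurred at 2, beside 31.3% of all AML1-ETO summits (2 and 39.3% with TGCGGT allowed as well). Allowing any last base (TGTGGN), a choice made after the windows had been seen, raised this to 7 of 11 beside 59.8%, and the CTSG, RNASE2 and RNASE3 windows then held a match. GAGGAA occurred at 4 of the 11 AML1-ETO sites beside 26.0% of the list, at the MPO near-start site, the AZU1 upstream site and both BPI sites. The AZU1 upstream site and the BPI start were the only 2 of 17 with both TGTGGT and GAGGAA, and 11 of the 17 had neither. Shares of the whole lists with both or with neither are not given here.

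For other factors known at these genes, TTNNGCAA, letters bound by C/EBP proteins, occurred at 2 of 11 AML1-ETO sites beside 8.75% of the list, and CAACNG or TAACNG, bound by Myb, at 4 of 11 beside 25.8%. The C/EBP letters stood at the outermost MPO site, the AZU1 start and, with N-CoR alone, the PRTN3 start, and each of these windows held Myb letters as well. Myb letters occurred at 7 of the 17 sites, and no share of the lists with both is given here. A match is only a run of letters, and with 11 sites the shares differ from those of the list by a few windows.

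In the reach of 50 kb, AML1 was found for 9 of the 10 genes beside 59.8% of all protein-coding genes, and p300 for 9 beside 64.4%. AML1-ETO was found for 8 beside 66.5%, N-CoR for 8 beside 48.7%, and H3K4me3 for 6 beside 80.9%. The sites then numbered 34, of which 11 had all 4 proteins. The 3 added sites of all 4 proteins were the one 5219 bp upstream of the main BPI start, one 17484 bp upstream of RNASE3 with AML1-ETO number 622, and one 47852 bp downstream of the MPO start within LPO with number 8840. Around the ribonucleases there was also a site of AML1 and AML1-ETO 9929 bp upstream of RNASE3. Between the genes lay AML1 alone 27848 bp and AML1-ETO with p300 28157 bp downstream of the RNASE3 start. A site of AML1, AML1-ETO and N-CoR lay 10173 bp upstream of RNASE2. Beyond RNASE2, p300 alone was called 34504 bp downstream of its start, at METTL17. A site of AML1 and AML1-ETO lay 16099 bp downstream of the RNASE2 start, 206 bp from an H3K4me3 summit. That summit was the nearest H3K4me3 to RNASE2. Most H3K4me3 added by the wider reach stood at other genes' starts, such as PTBP1 and MED16 on either side of the chromosome 19 cluster, METTL17 beyond RNASE2 and YEATS4 beyond LYZ.

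Of 24 genes around the 10 loci, 9 had H3K4me3 within 5 kb (beside 68.0% of all protein-coding genes), 7 had p300 (45.5%), 6 AML1-ETO (41.3%), 5 AML1 (34.9%) and 3 N-CoR (26.7%). None of the 5 was found at 13 of the 24 (25.8%), among them EPX near MPO, GZMB and CMA1 near CTSG, RNASE1, RNASE6, RNASE7 and RNASE8 around the ribonucleases, and LBP beside BPI. PRSS57, TSPOAP1 and LPO were the 3 with all 4 proteins. PRSS57, which encodes another azurophil serine protease on chromosome 19, had 5 H3K4me3, 3 p300, 2 AML1-ETO, 1 AML1 and 1 N-CoR summits. TSPOAP1, upstream of MPO, had 3 summits each of AML1, AML1-ETO and N-CoR and 2 each of p300 and H3K4me3. LPO had 1 AML1 and 3 p300 summits and 2 of each of the others, and its counts include the N-CoR and p300 summits also counted for MPO. Of the rest, CFD had 1 AML1-ETO and 2 H3K4me3 summits, GZMH and TGM2 had 1 AML1-ETO summit each, and the overlapping genes RNASE4 and ANG had 1 AML1, 2 p300 and 1 H3K4me3 summit in common reach. YEATS4 and CPSF6 had 1 p300 summit each, with 1 and 3 of H3K4me3, and MED16 had 2 of H3K4me3 alone.

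A list of 11 genes that process, package or accompany azurophil contents, such as CTSC, the dipeptidyl peptidase that activates the granule serine proteases, had AML1 at all 11 (beside 34.9% of all protein-coding genes), H3K4me3 at 10 (68.0%), p300 at 9 (45.5%), AML1-ETO at 8 (41.3%) and N-CoR at 7 (26.7%). All 4 proteins reached 6 of the 11, namely CTSC, CD63, CTSD, MAN2B1, SERPINB1 and HEXA. Beside these stand 5 of the 10 granule protein genes with all 4 proteins and 15.4% of all protein-coding genes, and 4 of the 10 with H3K4me3. The differences were not tested. Most of these 11 genes encode lysosomal proteins made in many cell types. SRGN, the proteoglycan core protein that retains granule contents, was the one without H3K4me3, and it had AML1 alone, as LYZ did.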

How the data were processed

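Per the submitters' processing notes and the study's methods, the authors used CASAVA 1.6, aligned reads to GRCh37 (hg19) with Bowtie 0.12.8 allowing 2 mismatches, merged 2 replicates per antibody and ran MACS2 2.0.10.20131216 with a peak threshold of p = 1e-20. What they deposited is positions, as 100 bp intervals (summit ± 50 bp) with a numbered name and no score, height or p-value. Names in the N-CoR, p300 and H3K4me3 lists begin with another antibody's name, so lists were assigned by their sample records. H3K27me3 and input were not analysed here. Sequences are printed for 8 of the 17 sites, and an item was left out and is not reported here.

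From these positions, summits were counted in the body of each GENCODE release 44 gene (lifted to GRCh37) ± 5 kb and ± 50 kb. The main start is that of the canonical transcript. Overlap, H3K4me3 within 1000 bp of a start and motif letters within 50 bp were counted in the same way over all genes or all summits, and no p-value was computed. Intervals on shares treat summits as independent. The 10 genes, the gene lists and the motifs were chosen with earlier results of these data known. The text names all 10 genes, their neighbours, and in each other list the genes with the most summits within 5 kb; further list genes (such as SRGN, SERPINB1, CAMP and those without a summit) were named after their values had been seen. Alternatives were other reaches, gene spans, assignments, peak numbers up to 5000, backgrounds, overlap widths and motif windows. Counting was tested on simulated data. Python 3.11.15, numpy 2.4.6, SciPy 1.17.1, Biopython 1.88 and matplotlib 3.10.9 were used.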

Additional observations from a re-analysis of the deposited data

How the results depend on the processing

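There is 1 pooled list per antibody, and no replicate was left out. No paired analysis was possible because the authors pooled the replicates of each antibody before peak calling. The lists have no scores, and a stricter threshold was imitated by peak number, whose meaning is not stated in the sources used here. Reads, and so depth and weak binding under the authors' threshold, were not analysed here.

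The background shares moved with the genes taken, but under both alternatives the share of the 10 genes stayed above them for the 4 proteins and below them for H3K4me3. In genes of at most 40 kb the background was 21.2% for N-CoR, 27.6% for AML1, 33.6% for AML1-ETO, 42.7% for p300 and 62.2% for H3K4me3, and on the chromosomes of the 10 genes it was 28.0%, 36.8%, 43.3%, 49.4% and 70.8% in the same order. With peaks numbered up to 5000, 1 of the 10 genes had H3K4me3 within 5 kb in place of 4, beside 32.1% of all protein-coding genes. With the main start alone, 2 in place of 4 had H3K4me3 within 1000 bp, and no share of all genes is given for that rule. Of the 17 sites, those with TGTGGT rose from 3 to 5 within 100 bp of the centre and to 9 with TGTGGN. Over the lists of the 4 proteins the share rose too, from 6.66 to 40.6% at first, to 11.7 to 48.0% within 100 bp and 25.8 to 62.4% with TGTGGN. Sites with GAGGAA rose from 5 to 8 within 100 bp, while the list shares went from 17.7 to 30.8% up to 30.2 to 45.8%. What lies behind these shifts was not tested. The other 48 values, over reaches of 2, 10 and 50 kb, main transcripts, whole intervals, assignment to the nearest start, peaks numbered up to 5000 for the 4 proteins, overlap windows of 25 and 250 bp, start distances of 500 and 2000 bp, TGTGGT or TGCGGT, and the member on chromosome 8 left out, stayed within 1.5 times the main count.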

Other observations

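Of 16 genes for proteins of the later specific and gelatinase granules, 7 had AML1-ETO within 5 kb (beside 41.3% of all protein-coding genes), 4 had AML1 (34.9%), 4 had H3K4me3 (68.0%), 3 had N-CoR (26.7%) and 3 had p300 (45.5%), while 9 had none of the 5 (25.8%). MMP9, the gelatinase of these granules, was the one with all 4 proteins, with 1 summit of each and no H3K4me3. CHIT1, which encodes the chitinase chitotriosidase, had 3 AML1 and 3 AML1-ETO summits, 1 of H3K4me3 and no N-CoR or p300. LTF, which encodes lactoferrin, had 2 AML1-ETO, 1 p300 and 1 H3K4me3 summit, and PTX3, the pentraxin 3 gene, had 1 summit each of AML1, AML1-ETO, N-CoR and H3K4me3. HPSE, the heparanase gene, had 1 each of AML1-ETO, N-CoR, p300 and H3K4me3, and CAMP, the cathelicidin gene, had 1 AML1-ETO summit alone. The genes with no summit included LCN2, MMP8, CEACAM8 and OLFM4. No difference from all genes or from the azurophil genes was tested.

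Of the eosinophil granule genes EPX, PRG2, PRG3 and CLC, none of 4 had a summit of any of the 5 antibodies within 5 kb, beside 25.8% of all protein-coding genes and 32.6% of those of at most 40 kb with none of the 5. RNASE2 and RNASE3, whose products are also eosinophil granule proteins, had AML1-ETO and N-CoR. The difference was not tested.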
